A study of Homo sapiens with 39 samples.

Results

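The response of RPE1 TetOn clone 5 to 24 h of doxycycline is described here, as 1 comparison of 2 groups with 3 libraries each. The treated group is hTERT-immortalised RPE1 TetOn-TRIM37 clone 5 grown with 1 µM doxycycline for 24 h, and the group it is set against is the same clone without the drug. RPE1 is a human retinal pigmented epithelial line that was immortalised with telomerase, and both groups carry the inducible TRIM37 gene. The genes taken were those with the Status OK in the authors' deposited table of this comparison, 12195 of 23710 symbols, called usable genes below. Of the rest, 11296 had the Status Low, with a mean count of at most 10, and 219 had the Status Outlier. A second clone of the same design, TetOn clone 4 with and without 1 µM doxycycline for 24 h (3 libraries each), and an RPE1 TRIM37 knockout against RPE1 wild type (9 libraries each) are used for comparison. The series holds 39 libraries in all and was made to compare transcripts under different TRIM37 levels.

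Every mean count, log2 fold change, standard error (SE) and q value below comes from the authors' deposited table of the comparison named. The log2 fold change is given as doxycycline over untreated, so that a positive value is higher with doxycycline. A q value is a p-value adjusted over genes, and a gene was called when the deposited q was under 0.05. No value per library was in the files used here, so the level in each library, its depth and the spread between libraries are not given, and the SE is the only error. TetOn clone 5 is 1 clone, no source used here says that its 3 replicates were separate cultures, and the q values may measure technical spread only. No group used here received doxycycline without carrying the TRIM37 transgene, and the effects of TRIM37 and of the drug itself cannot be told apart.

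TRIM37 is a RING-type ubiquitin ligase of the tripartite motif family. It holds down the material around the centrosome, among other things by lowering CEP192, and cells with more TRIM37 depend more on PLK4, the kinase that starts centriole duplication. It is also known to stabilise the peroxisomal import receptor PEX5, and it was named as a histone H2A ubiquitin ligase that acts with Polycomb proteins. In a TetOn line a tetracycline-responsive promoter drives the transgene once doxycycline binds the transactivator. Doxycycline is an antibiotic that also acts on mitochondrial ribosomes.

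TRIM37 had the highest log2 fold change of any usable gene in clone 5, 2.64 with an SE of 0.0419 at a mean count of 22600 over the 6 libraries, and its q was printed as 0. This is a 6.23-fold rise with doxycycline. Transgene and endogenous transcripts have 1 value in the authors' deposited table and are not separated, and because TRIM37 also set the direction of the table it cannot show whether the groups were swapped. In clone 4 the authors' deposited table gave a log2 fold change of 3.19 with an SE of 0.0441. The rise in clone 5 was smaller than in clone 4 by 0.55 on the log2 scale, with an SE of the difference of 0.0608 and an adjusted p of 6.07e-16 in the two-sided normal test of the difference, Benjamini-Hochberg adjusted over the genes usable in both clones. The usable genes that flank TRIM37 on chromosome 17 were not called: PPM1E had a log2 fold change of -0.23 with a q of 0.581 and SKA2 one of 0.065 with a q of 0.68. Of 29 usable genes of the 17q22-q23 list around TRIM37, 0 were called, beside 2.97% of all usable genes of clone 5.

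Beyond TRIM37 most called changes were small. At the deposited q under 0.05, 362 of 12195 usable genes were called, 2.97% of them. Higher with doxycycline were 97 genes (0.795% of usable genes) and lower were 265 (2.17%), so that 73.2% of the calls were falls. The median log2 fold change of called genes was 0.20 among rises and -0.21 among falls, beside a median of 0.0020 over all usable genes. A log2 fold change of 0.3 or more was reached by 31 rises and 65 falls, and one of 1 or more by 4 rises and 0 falls. At an unadjusted p under 0.05 there were 1308 usable genes.

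How many genes were called depended on the mean count. Among usable genes with a mean count under 50 only 3 of 1354 were called (0.222%), whereas among those at 10000 or more 61 of 322 were called (18.9%). The median SE was 0.199 in the lowest class and 0.029 in the highest. No gene in the table had an SE above 0.204, and whether the authors shrank the fold changes is not given in the sources used here. The plot of log2 fold change over mean count shows both facts.

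**Figure D1:**
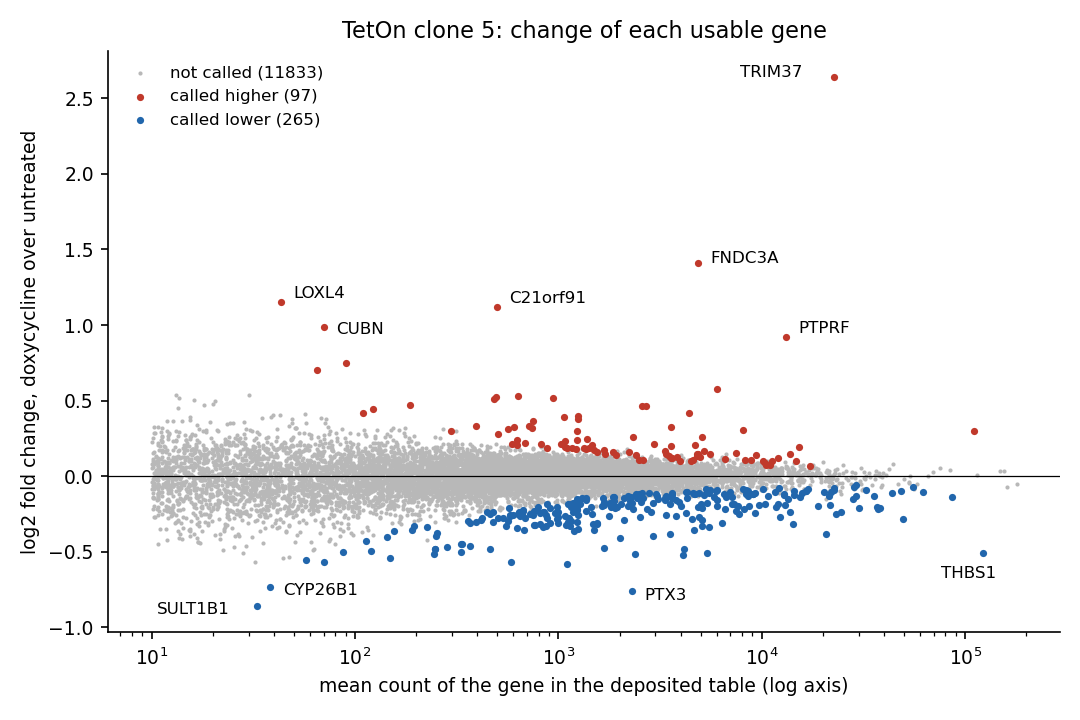
Log2 fold change in TetOn clone 5, doxycycline over untreated, against the mean count over its 6 libraries on a log axis, for each of the 12195 usable genes in the authors' deposited table. Each point is a gene; red points are the 97 called higher, blue points the 265 called lower, and TRIM37 stands alone at 2.64.

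The largest rises after TRIM37 were of single genes with unlike functions. FNDC3A, which encodes a membrane protein with fibronectin type III domains, rose 2.66-fold, a log2 fold change of 1.41 with an SE of 0.0512, and C21orf91 rose 2.17-fold, 1.12 with an SE of 0.0743. CUBN, the receptor cubilin that takes up the intrinsic factor and vitamin B12 complex, rose 1.98-fold at a mean count of 70.2. PTPRF, the receptor tyrosine phosphatase LAR, rose 1.89-fold at a mean count of 13100, with a log2 fold change of 0.92 and an SE of 0.0255. LOXL4, a lysyl oxidase-like enzyme of the matrix, had a mean count of 43.4 and rose by a log2 fold change of 1.15 with a q of 9.67e-08.

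The other large rises had log2 fold changes between 0.46 and 0.75 in the authors' deposited table. They were SLC16A12 (0.75), a monocarboxylate transporter family member that carries creatine, ZNF608 (0.705), a zinc finger gene, PPIF (0.58), the mitochondrial cyclophilin of the permeability transition pore, and SAMD9L (0.53), an interferon-inducible gene. MLLT3 (0.52), a subunit of the super elongation complex, CENPT (0.52), which joins the kinetochore to the centromere, SLITRK5 (0.51), a neuronal adhesion receptor, the antisense RNA FBXL19-AS1 (0.47), TNC (0.46), the matrix protein tenascin C, and NUTF2 (0.46), which imports Ran into the nucleus, complete the 15. Since no source used here gives the strand setting, the value of FBXL19-AS1 may include reads of its sense partner.

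The 15 largest falls were each smaller in size than 1 on the log2 scale. PTX3, the secreted pattern recognition protein pentraxin 3, fell by 41.1% with doxycycline, a log2 fold change of -0.76 with an SE of 0.0563. PAPPA, a secreted protease that cleaves insulin-like growth factor binding proteins, fell by 33.2%, and THBS1, the matrix protein thrombospondin 1, fell by 29.7% at a mean count of 122000. Among growth factors and their antagonists, BMP2 fell by a log2 fold change of 0.54, GDF6 by 0.51, with an SE of 0.0252 and a q printed as 0, and HHIP, the decoy receptor of hedgehog ligands, by 0.52. ITGA2, a collagen-binding integrin subunit, fell by 0.51, and EPHB6, a kinase-dead ephrin receptor, by 0.50.

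The potassium channel genes KCNK3 and KCNJ2 fell by log2 fold changes of 0.553 and 0.515 in the authors' deposited table. THAP11, a zinc finger transcription factor, and FAM43A fell by 0.57 each, the antisense RNA SLC26A4-AS1 by 0.50, NXN, the redox protein nucleoredoxin, by 0.49, and SEMA3D, a secreted guidance factor, by 0.48. Below the mean count of 50 that the ranking asked for, SULT1B1, a sulfotransferase, fell by 0.86 at a mean count of 33.0, and CYP26B1, which degrades retinoic acid, fell by 0.73 at 38.4. At a mean count just above that minimum, KCNK3 had 57.3 and FAM43A 70.5, with q values of 0.0234 and 0.0118.

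**Figure D2:**
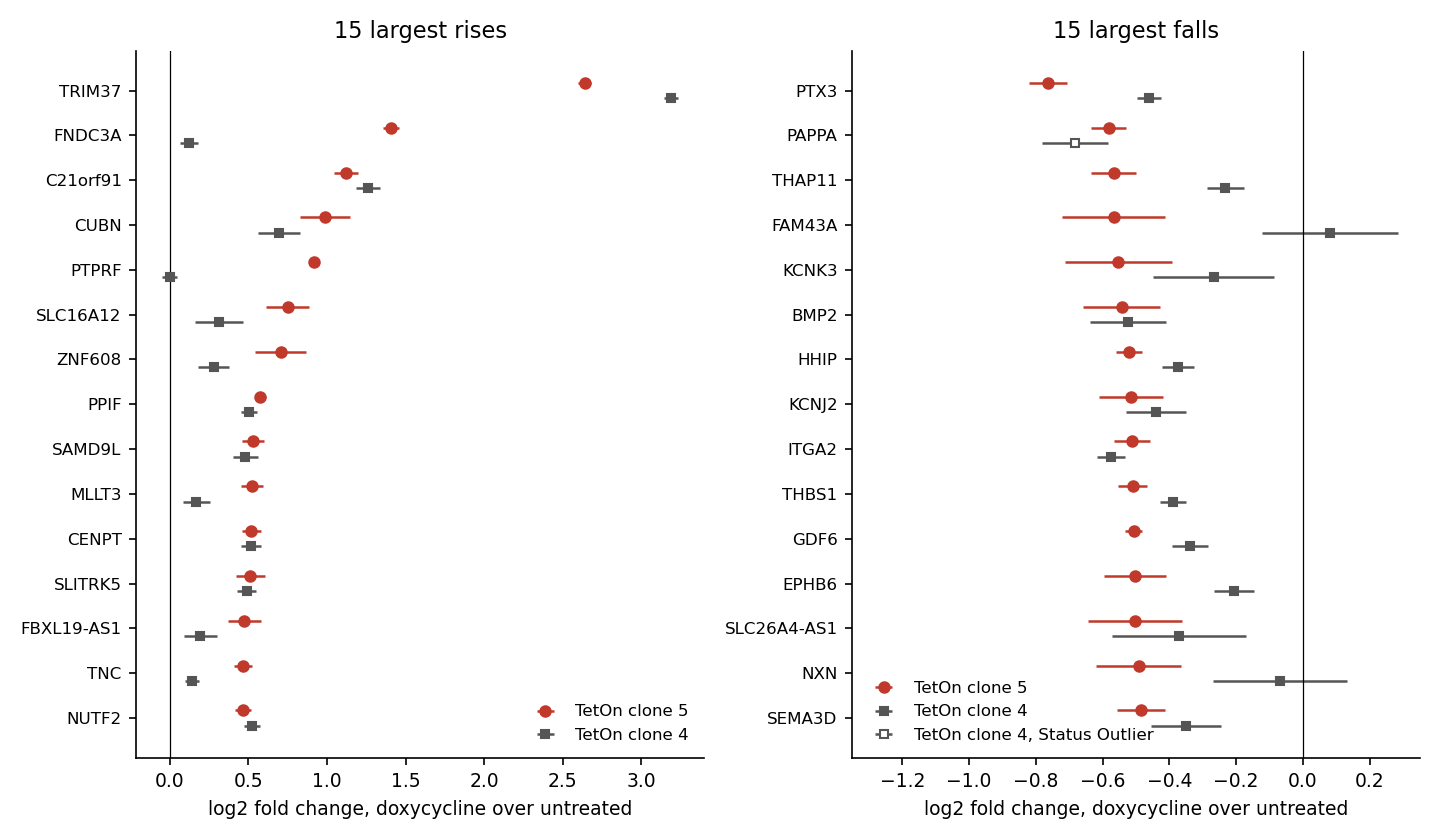
Log2 fold change, doxycycline over untreated, of the 15 largest rises and the 15 largest falls in TetOn clone 5 (red circles), with the value of the same gene in TetOn clone 4 (grey squares) from the authors' deposited tables. Bars are 1 SE; FNDC3A and PTPRF lie at 1.41 and 0.92 in clone 5 and near 0 in clone 4, while C21orf91, CENPT and NUTF2 lie close together in both.

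Several of the largest changes were neighbours on a chromosome, by the gene order of RefSeq on GRCh38.p14. CENPT, THAP11 and NUTF2 follow each other on chromosome 16, and in clone 5 the outer genes rose by 0.52 and 0.46 while THAP11 between them fell by 0.57. All 3 were also called in clone 4, with log2 fold changes of 0.51 for CENPT, -0.23 for THAP11 and 0.52 for NUTF2. CENPT lies on the opposite strand to the other 2 genes. THAP11 differed between clones by -0.335 with an adjusted p of 0.0518 in the normal test of the difference, which missed the threshold.

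PTPRF on chromosome 1 has as its neighbour HYI, a hydroxypyruvate isomerase gene on the opposite strand. In clone 5 PTPRF rose by 0.92 and HYI fell by 0.36, with a q of 1.72e-07, whereas clone 4 gave log2 fold changes of -0.0024 for PTPRF and 0.039 for HYI. KDM4A on the other side of PTPRF had a log2 fold change of -0.0031 and a q of 0.995. Around FNDC3A on chromosome 13 the flanking genes RCBTB2 and CDADC1 had log2 fold changes of 0.059 and -0.026, and of the 8 nearest usable genes, 4 on each side, 0 were called. On chromosome 21, BTG3, an antiproliferative gene beside C21orf91, rose by 0.24 in clone 5 and by 0.22 in clone 4. On chromosome 9, TNC and PAPPA are adjacent usable genes on opposite strands, 1 higher and 1 lower.

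A pair of neighbours on chromosome 11 was like this in clone 4 alone: PCNXL3 rose by 0.62 and the adjacent SIPA1, a Rap GTPase activator, fell by 0.61 in the authors' deposited table of clone 4, while clone 5 had 0.0036 and -0.052. Both differences were called in the test between clones, with adjusted p of 5.85e-11 and 0.00142. Where the transgene lies in the genome of each clone is not given in the sources used here, and its part in these values was not tested. There were 60 positions of usable genes next to the 15 largest rises and 15 largest falls. Called genes stood at 11 of them, 5 of 30 beside rises and 6 of 30 beside falls. THAP11 is counted both beside CENPT and beside NUTF2. CENPT, THAP11, NUTF2, TNC and PAPPA are themselves among the largest changes and were called by selection. The others were HYI, BTG3, SOX9, SLC26A4 and SEMA3A. The counts therefore cannot be set against the 2.97% of all usable genes. All genes of the pairs named here were chosen after their values were seen. Chromosome medians over usable genes at a mean count of 100 or more ran from -0.013 to 0.019 on the log2 scale.

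**Figure D3:**
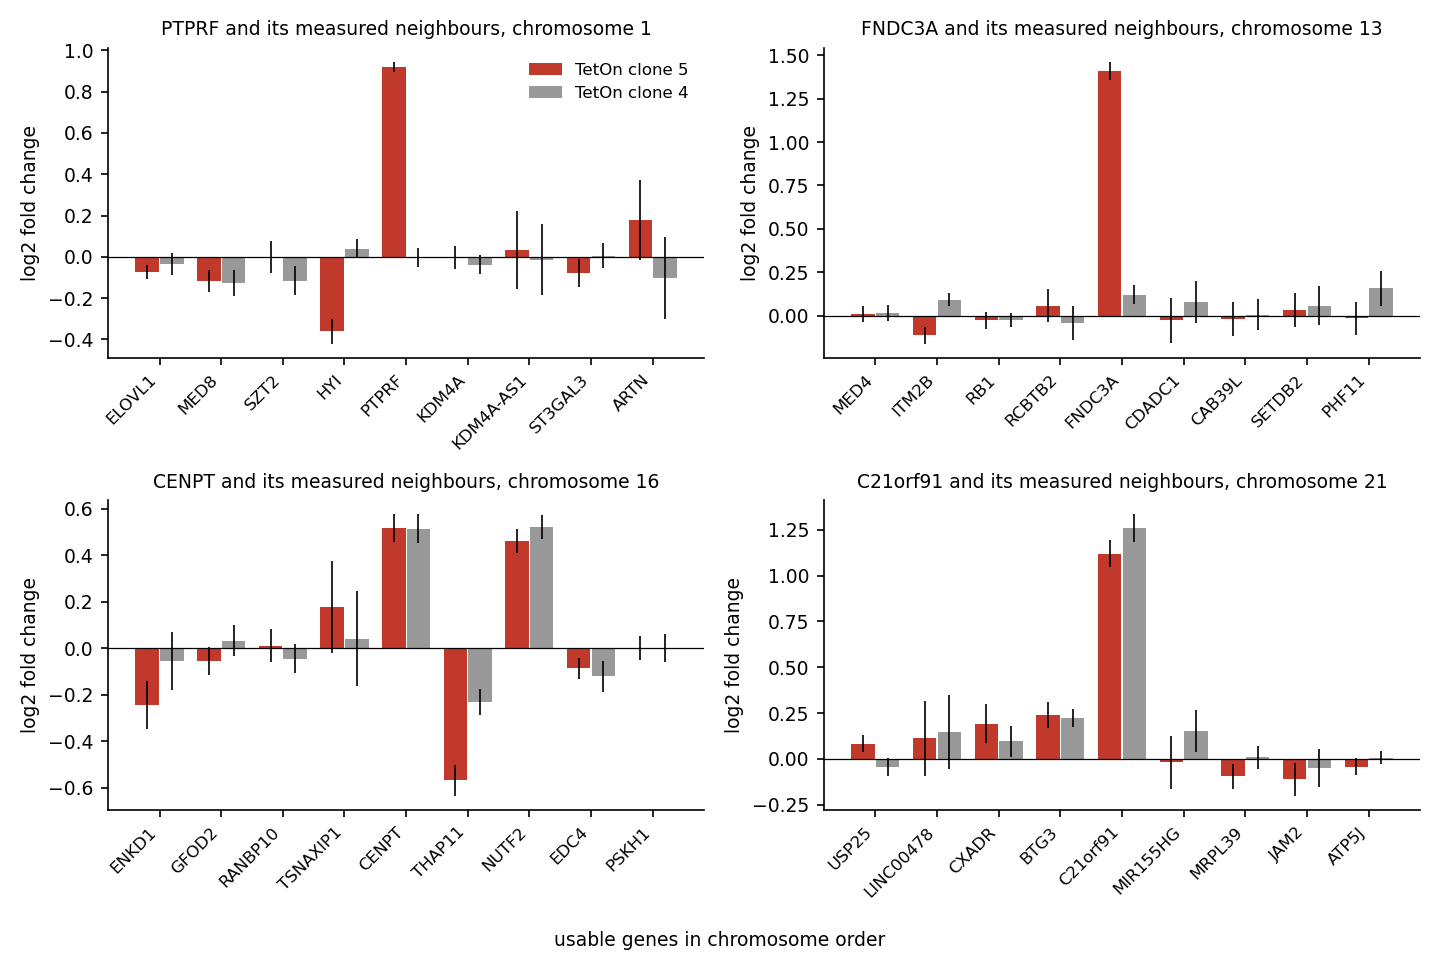
Log2 fold change, doxycycline over untreated, of PTPRF, FNDC3A, CENPT and C21orf91 with the 4 nearest usable genes on each side in chromosome order, in TetOn clone 5 (red) and TetOn clone 4 (grey). Bars start at 0 and the black lines are 1 SE; PTPRF with HYI and FNDC3A stand out in clone 5 alone, CENPT, THAP11, NUTF2 and C21orf91 in both clones.

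A further list held genes that are switched on by transforming growth factor beta (TGF-beta) and bone morphogenetic proteins (BMP), or that encode their ligands and antagonists. Of its 27 usable members 11 were called lower and 0 higher. TGF-beta and BMP ligands signal through SMAD proteins and drive the making of matrix. The median log2 fold change of the 27 was -0.13, beside 2.17% of usable genes called lower and a median of 0.0020 over all usable genes. Among ligands, TGFB1 fell by 0.36, BMP2 by 0.54 and BMP4 by 0.32 on the log2 scale. FST, the secreted activin antagonist follistatin, fell by 0.36, and LTBP3, which holds latent TGF-beta in the matrix, by 0.12. Targets that fell included IGFBP5 by 0.46, BHLHE40 by 0.29, TSC22D1 by 0.27, CDKN2B by 0.26 and PMEPA1 by 0.25. In clone 4, 3 of 24 usable members fell and 1 rose, with a median of -0.042, beside 1.95% of all usable genes called in that clone.

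The list of matrix proteases and their inhibitors had the most members called lower. It also holds the lysyl oxidase-like genes LOXL1, LOXL2 and LOXL4, which encode neither proteases nor protease inhibitors. The rank of this list above the TGF-beta and BMP list rests on counting LOXL1 and LOXL2. Of 30 usable members 12 fell and 1, LOXL4, rose, and the median was -0.11. Of all usable genes 2.17% were called lower and 0.795% higher. The list had a median mean count of 3380, and 4.44% of usable genes between 1000 and 10000 were called. ADAMTS1, which cleaves proteoglycans, fell by 0.38, and SERPINE2, a secreted inhibitor of thrombin, by 0.33. PLAU, the urokinase, fell by 0.23, ADAM19 by 0.215, the collagenase activator MMP14 by 0.21 and the gelatinase MMP2 by 0.11 at a mean count of 62100, all on the log2 scale of the authors' deposited table. MMP15, ADAMTS15, PLAT, LOXL1 and LOXL2 fell as well, with values between -0.061 and -0.24. In clone 4, 7 of 30 fell and 2 rose, beside 1.95% of all usable genes called in that clone.

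Fewer members were called among the adhesion and matrix genes, where the shares to set them against are the 2.17% of all usable genes called lower and the 0.795% called higher. Of 24 usable integrin and laminin genes 4 fell, ITGA2 by 0.51, ITGA11 by 0.14, ITGB5 by 0.10 and the fibronectin receptor subunit ITGA5 by 0.093, while NID2, the basement membrane protein nidogen 2, rose by 0.30. Of 18 usable collagen genes 3 fell, COL7A1 by 0.20, COL13A1 by 0.17 and COL8A1 by 0.12. Of 26 usable contractile genes, whose products build stress fibres, 4 fell: ZYX (zyxin) by 0.27, LMOD1 by 0.25, PDLIM7 by 0.16 and FHL2 by 0.10. The median mean count of this list was 11650, and of all usable genes at 10000 or more 18.9% were called. The count of falls is 2 when the trend with GC content is removed and 2 when the statistic is rescaled to its own central spread. The ZYX fall was larger in clone 5 than in clone 4, where its log2 fold change was -0.050, with an adjusted p of 0.0371 for the difference in the normal test.

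YAP and TAZ are coactivators that enter the nucleus of spread and tense cells and bind TEAD factors. Of 27 usable YAP and TEAD targets 5 fell and 0 rose: IGFBP3 by 0.48, CTGF (CCN2, connective tissue growth factor) by 0.38, F3 (tissue factor) by 0.12, CCDC80 by 0.115 and NT5E (CD73) by 0.084 on the log2 scale, with a list median of -0.029. Of all usable genes 2.17% were called lower and 0.795% higher. The list had a median mean count of 4150, and 4.44% of usable genes between 1000 and 10000 were called. CTGF had an SE of 0.0250 and a q printed as 0. Its fall was larger in clone 5 than in clone 4, where the log2 fold change was -0.073, a difference of -0.31 with an adjusted p of 8.88e-05 in the normal test. CYR61 (CCN1), another known YAP target, had log2 fold changes of -0.12 in clone 5 and 0.11 in clone 4, neither of them called, and the difference of -0.23 passed with an adjusted p of 0.0344.

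The promoter of CTGF is shown because it holds 3 copies of the TEAD motif GGAATG, which was searched on both strands in the 250 bases before the RefSeq start of each gene. Promoter windows came from RefSeq on GRCh38.p14, read 5′ to 3′ on the strand of the gene, and capitals mark the motif. The CTGF window is chr6:131951373-131951622 on the minus strand.
CTGF: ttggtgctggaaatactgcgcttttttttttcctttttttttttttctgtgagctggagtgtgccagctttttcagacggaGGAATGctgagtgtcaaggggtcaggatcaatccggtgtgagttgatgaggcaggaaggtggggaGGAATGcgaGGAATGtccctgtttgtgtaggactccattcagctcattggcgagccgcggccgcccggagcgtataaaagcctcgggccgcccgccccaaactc
The copies start 169, 104 and 95 bases before the start site in that window. The other 4 fallen targets had 0 copies in their windows, and 11.9% of the 35116 promoter windows of this length hold at least 1 copy, so the motif is common and its presence is a description only.

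Chaperones and folding enzymes of the endoplasmic reticulum (ER) had 7 of 28 usable members lower with doxycycline and 0 higher. They are the targets of the unfolded protein response, through which ATF6 and XBP1 raise folding capacity when secretory cargo accumulates. Of the 28, 26 had a negative value, and the median log2 fold change was -0.093. Of all usable genes 2.17% were called lower and 0.795% higher. HSPA5 (BiP), the main ER chaperone, had a log2 fold change of -0.235 with an SE of 0.0166 and a q of 2.88e-42. SDF2L1, a BiP cofactor, fell by 0.29 on the log2 scale, the transcription factor XBP1 by 0.19, the disulfide isomerases PDIA4 and PDIA3 by 0.115 and 0.10, the lectin chaperone CALR by 0.11 and the HSP90 paralog HSP90B1 (GRP94) by 0.098. HSPA5, CALR and HSP90B1 had mean counts of 24600, 43500 and 48200, and of all usable genes at 10000 or more 18.9% were called. In clone 4 the log2 fold change of HSPA5 was -0.23 as well. There 5 of 29 usable members fell and 0 rose, beside 1.95% of all usable genes called in that clone. The cytosolic heat shock list had 0 of 17 usable members called in clone 5.

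The ER stress response element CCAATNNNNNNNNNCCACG, which ATF6 binds together with NF-Y, was searched on both strands of the same windows. It was found in HSPA5, HSP90B1, CALR and XBP1, 4 of the 6 fallen ER genes that have a window, and in 0.074% of all 35116 windows. HSP90B1 held 2 copies, and PDIA4 and SDF2L1 held 0. The windows are chr9:125241344-125241593 on the minus strand for HSPA5, chr12:103930160-103930409 on the plus strand for HSP90B1, chr19:12938359-12938608 on the plus strand for CALR and chr22:28800570-28800819 on the minus strand for XBP1. They are printed because the element is rare, with its fixed bases in capitals on whichever strand it was found. The element was not counted separately in the ER genes that were not called, so a link between it and the falls was not tested.
HSPA5: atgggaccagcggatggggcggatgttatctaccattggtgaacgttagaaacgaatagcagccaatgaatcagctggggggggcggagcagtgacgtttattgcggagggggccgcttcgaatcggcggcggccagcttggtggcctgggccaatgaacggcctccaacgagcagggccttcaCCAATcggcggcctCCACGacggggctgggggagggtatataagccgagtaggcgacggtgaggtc
HSP90B1: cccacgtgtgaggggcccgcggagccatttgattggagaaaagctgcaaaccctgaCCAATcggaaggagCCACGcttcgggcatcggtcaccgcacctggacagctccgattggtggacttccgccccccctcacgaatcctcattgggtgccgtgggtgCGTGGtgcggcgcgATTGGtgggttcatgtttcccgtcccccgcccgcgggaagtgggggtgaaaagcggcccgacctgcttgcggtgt
CALR: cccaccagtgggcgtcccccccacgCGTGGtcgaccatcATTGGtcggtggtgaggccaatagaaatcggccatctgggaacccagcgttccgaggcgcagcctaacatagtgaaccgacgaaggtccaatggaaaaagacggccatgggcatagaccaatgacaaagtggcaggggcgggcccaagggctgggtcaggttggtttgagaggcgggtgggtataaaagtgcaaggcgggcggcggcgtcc
XBP1: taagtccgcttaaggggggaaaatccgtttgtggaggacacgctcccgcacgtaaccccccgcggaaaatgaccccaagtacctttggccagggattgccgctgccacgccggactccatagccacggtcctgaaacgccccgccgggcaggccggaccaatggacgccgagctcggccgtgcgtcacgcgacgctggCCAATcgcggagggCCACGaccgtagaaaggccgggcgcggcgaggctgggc
A match shows only that the letters are present, and binding was not measured.

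Growth factor and stress response lists also had members called lower, beside 2.17% of all usable genes called lower and 0.795% called higher. LIF, IER3 and PHLDA1 are counted in more than 1 of these lists. The feedback genes of mitogen-activated protein (MAP) kinase signalling had 5 of 25 usable members lower and 0 higher: the phosphatases DUSP6 by 0.26 and DUSP4 by 0.19, IER3 by 0.26, PHLDA1 by 0.10 and LIF, a cytokine of the interleukin 6 family, by 0.34 on the log2 scale. Immediate early genes had 4 of 23 lower, among them JUNB by 0.36 and IER2 by 0.25, and 1 higher, FOSL2 by 0.11 with a q of 0.0477. FOSL2 was not called after the median log2 fold change was subtracted. Of 21 usable NF-kB and inflammatory genes 4 fell, PTX3, NFKBIZ by 0.37, LIF and CSF1 by 0.205, with a list median of -0.205 in clone 5 and -0.23 in clone 4. This list has a median mean count of 252, and 15 of its 36 genes had the Status Low.

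Of 25 usable NRF2 targets and glutathione genes 4 fell: HMOX1 (heme oxygenase 1) by 0.30, NQO1 by 0.25, the ferritin heavy chain FTH1 by 0.19 and transketolase TKT by 0.12 in the authors' deposited table. Under a statistic rescaled to its central spread that count is 2. Of 10 usable iron genes 2 fell, FTH1 and the transferrin receptor TFRC, by 0.091 with a q of 0.047, beside 2.17% of all usable genes called lower. TFRC lost its call with the rescaled statistic, which left 1. Iron regulatory proteins are known to act on these transcripts in opposite ways. FTH1 has processed pseudogenes that could share its reads.

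For the next lists the shares to set beside the counts are the 2.17% of all usable genes called lower and the 0.795% called higher. Retinoic acid and steroid response genes had 6 of 18 usable members lower and 0 higher. They were the retinoic acid synthesis enzyme ALDH1A3 by 0.32, CYP26B1 by 0.73, the receptor RARA by 0.20, the orphan receptor NR2F1 by 0.11, and the glucocorticoid-responsive KLF9 by 0.33 and MT2A, a metallothionein, by 0.25 on the log2 scale. Of 21 usable Wnt and Notch genes 4 fell: the receptor FZD8 by 0.33, the Notch ligand JAG1 by 0.26, the transcription factor TCF7 by 0.24 and the secreted Wnt antagonist SFRP1 by 0.22. Of 39 usable cilium and hedgehog genes only HHIP was called. Of 31 usable lysosome and autophagy genes, the protease CTSD and the autophagy receptor SQSTM1 fell by 0.20 and 0.19, and NPC1, which exports cholesterol from lysosomes, rose by 0.19.

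**Figure D4:**
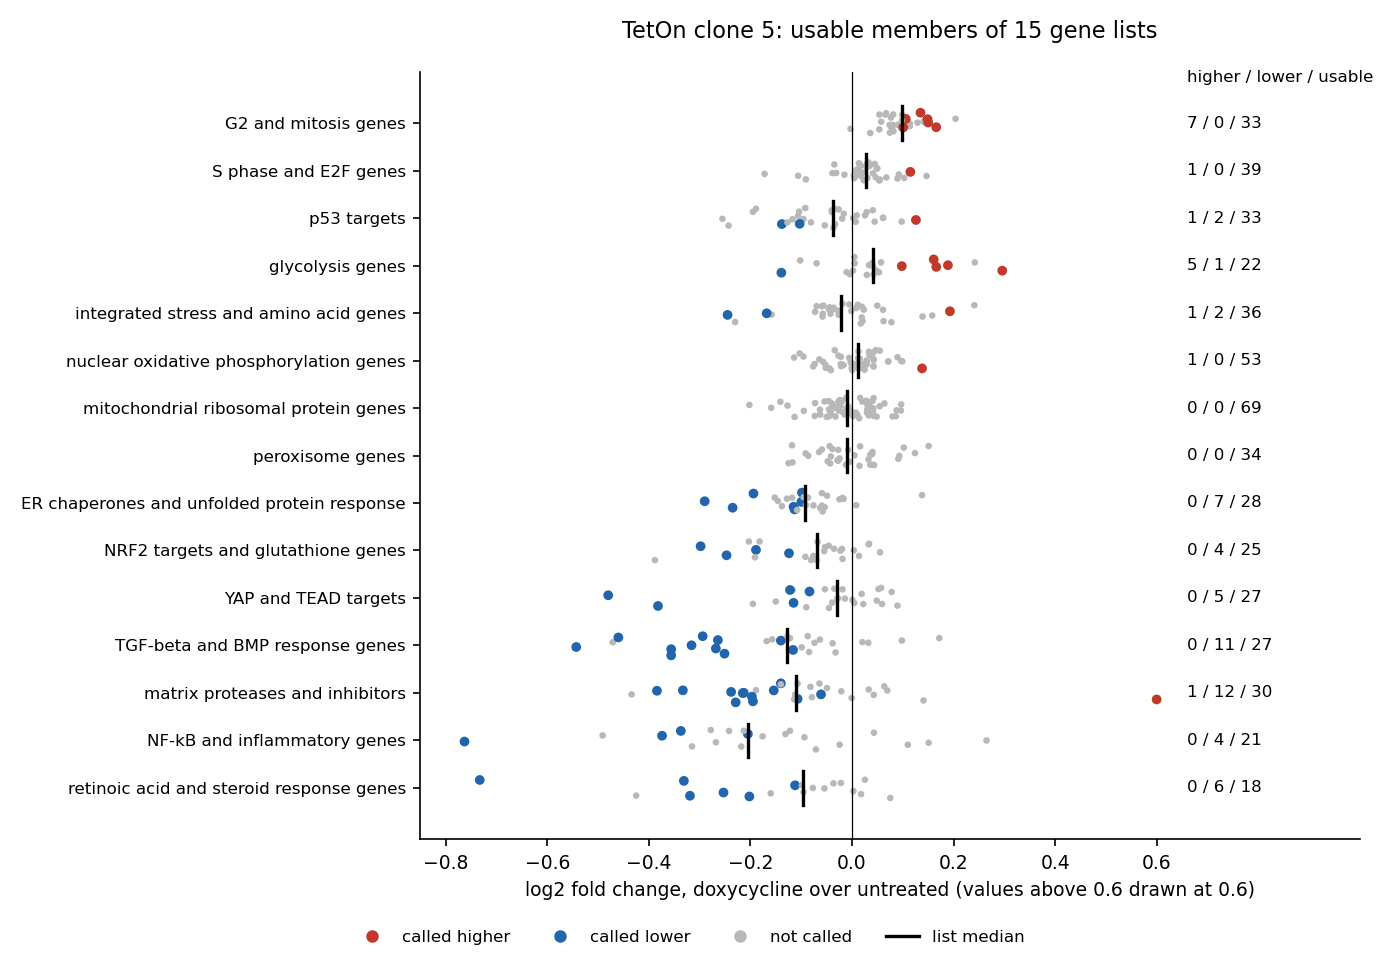
Log2 fold change in TetOn clone 5, doxycycline over untreated, of each usable member of 15 gene lists in the authors' deposited table. Red and blue points are members called higher and lower, grey points are not called, black lines are list medians, and the numbers at the right are called higher, called lower and usable; mitotic genes lie to the right of 0 and ER, TGF-beta and BMP, and protease genes to the left.

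The list with the most members called higher was that of G2 and mitosis genes. These genes are transcribed late in the cell cycle and encode kinetochore, spindle and cytokinesis proteins. Of 33 usable members 7 rose and 0 fell, 32 of 33 had a positive value, and the median was 0.098, beside 0.795% of usable genes called higher and a median of 0.0020 over all of them. CENPE, a kinetochore motor, rose by 0.17, the spindle protein ASPM by 0.15, ANLN (anillin), which organises the cleavage furrow, by 0.15, and the checkpoint kinase BUB1 by 0.15. NUSAP1, PRC1 and DLGAP5, which bind spindle microtubules, rose by 0.135, 0.11 and 0.10 on the log2 scale. The count is 3 with the statistic rescaled to its central spread and 4 with the GC trend removed. In clone 4, 0 of 32 usable members were called and the median was -0.013. Of 32 members tested between clones 0 differed at an adjusted p under 0.05 in the normal test, beside 0.221% of all genes tested. MKI67 and CENPF of the same list had the Status Outlier, at 0.15 and 0.16. In bulk RNA a larger share of cells in mitosis and more RNA of these genes per cell cannot be told apart.

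The cell cycle homology region TTTGAA, to which the DREAM and MuvB complexes bind, was present on either strand in the windows of ANLN, ASPM, DLGAP5 and PRC1, 4 of the 7 risen mitotic genes, and in 13.3% of all 35116 windows. Those of ANLN, chr7:36389612-36389861 on the plus strand, and DLGAP5, chr14:55191586-55191835 on the minus strand, are shown because each holds 2 copies, in capitals.
ANLN: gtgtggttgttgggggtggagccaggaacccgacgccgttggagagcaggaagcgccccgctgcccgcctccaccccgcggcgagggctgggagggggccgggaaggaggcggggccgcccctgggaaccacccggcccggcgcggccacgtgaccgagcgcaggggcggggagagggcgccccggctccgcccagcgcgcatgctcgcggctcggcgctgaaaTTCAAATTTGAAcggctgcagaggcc
DLGAP5: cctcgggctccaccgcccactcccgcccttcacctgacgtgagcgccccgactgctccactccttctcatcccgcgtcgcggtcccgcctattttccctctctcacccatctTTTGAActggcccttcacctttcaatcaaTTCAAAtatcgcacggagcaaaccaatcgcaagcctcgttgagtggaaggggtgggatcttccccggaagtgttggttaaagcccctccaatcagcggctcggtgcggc
In ANLN the 2 copies adjoin on opposite strands. The region was not counted separately in the G2 and mitosis genes that were not called, so a link between it and the rises was not tested.

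Genes of S phase had 1 of 39 usable members called, RRM1, the large subunit of ribonucleotide reductase, higher by 0.115 on the log2 scale. Of 33 usable targets of the tumour suppressor p53, 2 fell and 1 rose, beside 2.17% and 0.795% of all usable genes. CDKN1A, the p21 cell cycle inhibitor, had a log2 fold change of -0.14 with an SE of 0.0319 and a q of 0.00108, PLK2 one of -0.10 and CCNG1 one of 0.13. MDM2, the ligase that holds p53 in check, had -0.033 with a q of 0.915. In clone 4, CDKN1A had the Status Outlier with -0.16, and 0 of 31 usable targets were called.

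Transcripts of genes that act with TRIM37 at the centriole or in the p53 response to mitotic delay were not called in clone 5. PLK4 had a log2 fold change of 0.018 with an SE of 0.051, CEP192 of 0.048 with an SE of 0.0528, TP53BP1 of -0.0065 with an SE of 0.0455 and USP28 of -0.0088 with an SE of 0.0601. TP53BP1 and USP28 carry the signal from failed or slow mitosis to p53. Their q values lay between 0.874 and 0.989, and values such as these concern transcripts, not the proteins that TRIM37 acts on. The share to set beside the counts of the next lists is the 2.97% of all usable genes of clone 5 that were called. At that share, lists of these sizes hold few calls or none. Of 9 usable genes of mitotic surveillance 0 were called. Of 35 usable centriole genes only TRIM37 and CEP97, a suppressor of cilium growth at the centriole, were called, with CEP97 higher by 0.33, SE 0.0621, in clone 5 and at 0.093 with a q of 0.734 in clone 4. The difference between clones for CEP97 had an adjusted p of 0.552 in the normal test. PEX5 had a log2 fold change of 0.12 with a q of 0.545, and of 34 usable peroxisome genes 0 were called, with values between -0.13 and 0.15. Of 29 usable Polycomb and H2A ubiquitination genes 0 were called, and of 39 other TRIM family genes 1 fell, TRIM16 by 0.23, whose near copy TRIM16L may share its reads.

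The lists for mitochondria and protein synthesis had shares called near or under the 2.97% of all usable genes, or rested on 1 gene. The integrated stress and amino acid list was the exception. Of 53 usable nuclear genes of oxidative phosphorylation 1 rose, UQCRFS1 by 0.14, and of 69 usable mitochondrial ribosomal protein genes 0 were called. Mitochondrially encoded genes were not analysed here. Of 16 usable genes of the mitochondrial unfolded protein response and proteases only ATF5 rose, by 0.19 with a q of 0.0482, and it was not called after the median was subtracted. Of 36 usable integrated stress and amino acid genes 1 rose and 2 fell in clone 5, PYCR1 by 0.17 and VEGFA by 0.245. Of all usable genes of clone 5, 0.795% were called higher and 2.17% lower. In clone 4, 6 of 35 usable genes of this list rose and 0 fell. All 12153 usable genes of clone 4 had 87 called higher and 150 lower. Of the 32 list members tested for a difference between clones, 0 passed at an adjusted p under 0.05 in the normal test. Of 44 usable cytosolic ribosomal protein genes 1 rose, and of 30 usable cholesterol synthesis genes 0 were called. Of 38 usable interferon-stimulated genes SAMD9L alone was called.

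Glycolysis was the metabolic list with most calls, 5 of 22 usable members higher and 1 lower, beside 0.795% and 2.17% of all usable genes. Its median mean count was 8825, and the share of all usable genes called was 4.44% between mean counts of 1000 and 10000 and 18.9% above that. PKM, pyruvate kinase, rose by 22.8% at a mean count of 110000, a log2 fold change of 0.30 with an SE of 0.0297. PDK1, ENO2, HK2 and HK1, a kinase of pyruvate dehydrogenase, a neuronal enolase and the hexokinases, rose by 0.19, 0.17, 0.16 and 0.098 on the log2 scale. The glucose transporter SLC2A1 fell by 0.14. PKM rose in clone 4 as well, by 0.22, whereas ENO2 had -0.027 there and the difference passed with an adjusted p of 0.0428 in the normal test. Of 25 usable hypoxia response genes 5 fell and 0 rose, among them TXNIP by 0.48, BHLHE40 by 0.29, BHLHE41 by 0.26 and VEGFA by 0.245.

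The cells were checked against their label with marker lists. Of 16 retinal pigment epithelium markers 6 were above the mean count limit, MITF, PAX6, OTX2, MERTK, RDH5 and PMEL, and 5 were at 0, TYR, TYRP1, RGR, DCT and TTR. RPE65, the visual cycle isomerase, had a mean count of 0.14 and BEST1, a chloride channel, one of 0.782, so these 2 were absent or nearly so. Others of the list were above the limit at modest mean counts, MERTK at 60.6, RDH5 at 48.1 and PMEL at 17.6. LRAT had a mean count of 2.94 in clone 5 and 102 in clone 4. All 12 mesenchymal markers were above the limit, with VIM (vimentin) at a mean count of 148000, and S100A4 lowest at 36.5. Of 8 epithelial markers 4 were above it, KRT18 at 13700, KRT8 at 12000, KRT7 at 684 and CLDN1 at 53, and 4 were under it, OCLN at 9.17, KRT19 at 3.37, CDH1 at 0.679 and EPCAM at 0.353. Of 14 neuroblastoma markers 2 were above it, GATA2 at 301 and HAND2 at 32.7, and 9 were at 0. Of 18 usable members of the epithelial and mesenchymal list, 5 fell and 0 rose, beside 2.17% of all usable genes called lower: KRT8 by 0.18, KRT18 by 0.23, KRT7 by 0.28, CD44 by 0.13 and CAV1 by 0.20 on the log2 scale. Another 5 had positive values and were not called, among them VIM at 0.032, THY1 at 0.028, CLDN1 at 0.13 and ZEB2 at 0.16, and the list median was -0.060.

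Clone 5 was next set against clone 4, which shares no library with it, to ask which changes recur in another clone. In clone 4 the authors' deposited table called 237 of 12153 usable genes, 1.95%, 87 higher and 150 lower. Of the 337 genes called in clone 5 and usable in both, 106 were called with the same sign in clone 4, which is 31.5% of those clone 5 calls and 46.3% of the 229 clone 4 calls. These were 29 rises and 77 falls. The exceptions were ATP2B4, a plasma membrane calcium pump, and the keratin KRT80, the 2 genes called with opposite signs. ATP2B4 had log2 fold changes of 0.14 in clone 5 and -0.15 in clone 4, and KRT80 of -0.092 in clone 5 and 0.12 in clone 4. Called or not, 291 of the 337 had the same sign in clone 4 and 46 the opposite one. Agreement of sign was not counted over all 11778 genes usable in both clones, so the 291 have no share to be set against.

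The falls called in both clones included PTX3, HHIP, ITGA2, THBS1, GDF6, IGFBP3, LIF, HSPA5, ADAMTS1, SERPINE2, MMP14, ALDH1A3, SFRP1 and CAV1. ITGA2 had log2 fold changes of -0.51 in clone 5 and -0.57 in clone 4, IGFBP3 of -0.48 in clone 5 and -0.45 in clone 4, and LIF of -0.34 in clone 5 and -0.38 in clone 4. The rises called in both included C21orf91, with 1.12 in clone 5 and 1.26 in clone 4, CUBN, PPIF, SAMD9L, CENPT, SLITRK5, NUTF2 and PKM. For PPIF the authors' deposited tables gave 0.58 in clone 5 and 0.50 in clone 4.

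The difference between the clones was tested for 11778 genes usable in both, and 26 passed, 0.221% of them, with 677 at an unadjusted p under 0.05. In 7 the clone 5 value was above that of clone 4, and in 19 it was below. PTPRF differed by 0.92 with an adjusted p of 7.74e-62 and FNDC3A by 1.29 with an adjusted p of 4.97e-60. Apart from the genes named so far, AMIGO2, an adhesion molecule, fell by 0.20 in clone 5 and had a log2 fold change of 0.0011 in clone 4, and EFNB2, an ephrin ligand, had 0.026 in clone 5 and fell by 0.43 in clone 4. FST fell by 0.36 in clone 5 and had -0.043 in clone 4. PTX3 fell in both, with -0.76 in clone 5 and -0.46 in clone 4, and the difference passed with an adjusted p of 0.00522 in the normal test. HYI and TNC passed as well, with adjusted p of 0.000204 and 0.00717. Of the 26 genes, 12 were called in clone 5 alone, 8 in clone 4 alone, 5 in both and 1 in neither. MLLT3, with 0.52 in clone 5 and 0.17 in clone 4, did not pass this test at an adjusted p of 0.21.

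The RPE1 TRIM37 knockout, in which TRIM37 had a log2 fold change of -1.95 against wild type, had many more genes called. Its authors' deposited table called 6963 of 13002 usable genes, 53.6%. Of the 342 clone 5 calls usable there, 279 were called in the knockout, 81.6%, and these divided into 138 with the opposite sign and 141 with the same sign. Of 94 genes higher in clone 5, 29 were higher, 35 lower and 30 not called in the knockout. Of 248 lower in clone 5, 103 were higher, 112 lower and 33 not called. Among the largest falls, PTX3 and ITGA2 were higher in the knockout, at 0.95 and 1.25, while GDF6 was lower, at -1.43. FNDC3A had -0.035 and C21orf91 -0.074 in the knockout, and neither was called. The G2 and mitosis genes ANLN and CENPE had -0.17 and 0.18 in the knockout. Wild type RPE1 libraries carry nested replicate labels, and the knockout libraries do not. Which of them were separate cultures is not given in the sources used here, and the knockout q values may also measure technical spread only.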

How the data were processed

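RNA sequencing libraries of human cell lines were compared by the authors, who deposited 5 tables, 1 per comparison, of which 3 were used. Per the submitters' processing notes they used STAR and DESeq2, with no versions given. Not given in the sources used here are the genome build, annotation, strand setting, counting rule and scaling of the mean count. Overlapping or antisense genes may thus share reads.

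Per the file headers, the authors' deposited tables hold per gene a Status, a mean count, a log2 fold change, its SE (taken as a score) and a q value, to 3 significant digits. The numerator is not named, and the direction was set by the sign of TRIM37. A q printed as 0 lies below what the file could hold. Genes with the Status Low or Outlier had a q of 1. How deeply each library was sequenced is unknown, and no interval is computed from depth.

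The plan allowed for counts. As the files hold only the authors' comparison, their q under 0.05 was the main result and no count model was fitted. The difference between TetOn clones was tested as the clone 5 log2 fold change minus the clone 4 one, divided by the square root of the sum of both squared SEs, with a two-sided normal p and Benjamini-Hochberg adjustment over 11778 genes (scipy 1.17.1, statsmodels 0.14.6, pandas 2.3.3), tested on simulated data. A gene's values in both clones are assumed to be independent, since the clones share no library.

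The named genes are TRIM37 with PLK4, TP53BP1, USP28, CEP192, PEX5, CDKN1A and MDM2, of the called genes at a mean count of 50 or more the 15 that rose most and the 15 that fell most, up to 6 called members by smallest q from any list with 2 or more called, and the 10 genes with the smallest adjusted p between clones. Some results are not reported here. Other genes were chosen after their values were seen. The members and lists were chosen with earlier results of these data known. Names, chromosomes, gene order and promoter windows (none of chromosome 8) came from RefSeq on GRCh38.p14 by symbol, which matched 11970 usable genes. Alternatives were other thresholds, mean count minimums, a statistic rescaled to its central spread, subtraction of the median log2 fold change, keeping Outlier genes, minimum sizes and removal of the trend over 20 GC bins.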

Additional observations from a re-analysis of the deposited data

Results flagged for a closer look

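The change with doxycycline differed between TetOn clone 5 and TetOn clone 4 for 26 genes by the normal test of the difference, and each value given below, which leaves out what is not reported here, is the log2 fold change in clone 5 minus that in clone 4, from the authors' deposited tables.

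Above clone 4 were FNDC3A by 1.29, PTPRF by 0.921, SIPA1 by 0.561, EFNB2 by 0.458, TNC by 0.325, ATP2B4 by 0.288 and ENO2, an enolase, by 0.193. SIPA1 and EFNB2 had falls in clone 4 that clone 5 did not show.

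Below clone 4 the difference was -0.617 for PCNXL3, -0.589 for SCARF2, -0.566 for LAGE3 and -0.55 for TRIM37. It was -0.432 for KLF2, a transcription factor of the Krüppel family, -0.4 for HYI, -0.379 for PCK2, the mitochondrial phosphoenolpyruvate carboxykinase, -0.313 for the activin antagonist FST, -0.309 for CTGF and -0.302 for PTX3. It was -0.27 for FSTL3, another activin antagonist, -0.261 for LBH, -0.227 for CYR61, -0.223 for ZYX, -0.213 for KRT80, -0.201 for AMIGO2, -0.186 for SERPINE2 and -0.183 for NTN4, a netrin of the basement membrane.

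Among the 219 genes with the Status Outlier in the clone 5 table, which have a deposited q of 1, 5 passed when a normal p from the log2 fold change over its SE was adjusted with the usable genes. ANKRD1, a target of YAP, had a log2 fold change of -0.47, ADAM9, a membrane protease, 0.24, the ribosomal protein gene RPL41 0.35, the actin bundler FSCN1 -0.20 and CHPF -0.18 in the authors' deposited table.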

How the results depend on the processing

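At a threshold of 0.01, 240 genes were called in clone 5, 60 of them higher, and the difference between clones was called for 17 genes, 11 of them lower in clone 5 than in clone 4. At a threshold of 0.1, 12 genes were called above clone 4. Asking for a change of at least 1.5-fold left 11 calls, 8 higher and 3 lower, and asking for a log2 fold change of 1 or more in size left 4, of which 4 were higher and 0 lower. An absolute difference of at least 0.3 left 16 genes between clones, 11 of them below clone 4. All other alternatives kept these counts over all genes within 1.5 times, in clone 5 from 254 genes with the rescaled statistic to 463 at a threshold of 0.1. Removing the GC trend left 340, keeping Outlier genes gave 367, and a normal p with Benjamini-Hochberg adjustment gave 362. Most alternatives left the log2 fold changes as they were. Only subtraction of the median (0.00258) and of the GC bin medians (-0.0456 to 0.0164) moved them. The smallest named called change was larger in size, -0.084 for NT5E. A change of sign was therefore not possible, and 0 was found, among the 122 named genes called in the main result. Of them, 16 lost their call with the rescaled statistic, among them KCNK3, ASPM, HK1, HMOX1 and KRT80, 6 with the GC trend removed, NUSAP1, DLGAP5, PDLIM7, LMOD1, COL7A1 and KRT80, and ATF5 and FOSL2 with the median subtracted. Counts within lists moved more: with the rescaled statistic G2 and mitosis rises were 3 in place of 7, NRF2 falls 2 in place of 4 and iron falls 1 in place of 2, and at a threshold of 0.1 YAP and TEAD falls were 8 in place of 5 and NRF2 falls 7 in place of 4. GC content was known for 92.6% of usable genes.

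No paired analysis was possible because the files used here hold no value per library. Leaving out each replicate was not run for the same reason. What 1 library contributes to any call is therefore unknown, as is the depth of each library. Among usable genes with a mean count under 50 the median SE was 0.199 and the 3 called genes had absolute log2 fold changes of 0.733 or more.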
